A study of Homo sapiens with 8 samples.

Results

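The metallothionein and zinc response genes examined here are 10 of the 20263 genes in the expression table. They were chosen by name, as the rows whose human Ensembl identifier maps to MT1A, MT1E, MT1F, MT1G, MT1M, MT1X, MT2A, MTF1, SLC30A1 or SLC39A10. PANC-1 cells, an established human line of pancreatic ductal carcinoma, were used throughout. They received 10 μM eupalinolide B (EB), a natural product of Eupatorium lindleyanum, or the vehicle dimethyl sulfoxide (DMSO) for 24 h, and mRNA was sequenced from 4 libraries per group, which the methods call biological replicates. The same methods also speak of triplicates, and this conflict is not resolved in the sources used here. All libraries came from this one line, with no genetic modification named. The study examined metal handling because it asked how EB acts on pancreatic cancer cells and turned to copper. The 4 columns headed C were read as DMSO, and the 4 headed H, a letter left unexplained, as EB because the design has no other group.

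Metallothioneins are small cysteine-rich proteins that bind zinc and copper and also cadmium. They buffer the free metal in the cell. When zinc rises, the transcription factor MTF1 binds metal response elements in the promoters of metallothionein genes and of SLC30A1, which encodes the zinc exporter ZnT1, and raises their transcription, whereas SLC39A10, which encodes the zinc importer ZIP10, is a gene that MTF1 can repress. Metallothionein genes can also respond to glucocorticoids and to oxidative stress.

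The promoters of MT2A, MT1X and SLC30A1 are shown because these genes are the metal-responsive members with an entry in the RefSeq promoter table, and because MT1X and SLC30A1 fell with EB and MT2A did not pass the test. They are the 250 bases before the annotated gene start in RefSeq on GRCh38.p14, written 5′ to 3′ along the gene's strand. Capitals mark each match to the core of the metal response element, searched as TGCACNC or TGCGCNC on both strands. MT2A lies on the plus strand (chr16:56608334-56608583), MT1X on the plus strand (chr16:56682220-56682469) and SLC30A1 on the minus strand (chr1:211579162-211579411).
MT2A: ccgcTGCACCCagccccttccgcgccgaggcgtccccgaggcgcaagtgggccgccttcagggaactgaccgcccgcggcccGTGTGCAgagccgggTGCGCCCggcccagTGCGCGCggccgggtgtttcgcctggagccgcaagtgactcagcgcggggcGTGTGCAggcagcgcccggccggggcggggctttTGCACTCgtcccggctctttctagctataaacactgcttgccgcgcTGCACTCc
MT1X: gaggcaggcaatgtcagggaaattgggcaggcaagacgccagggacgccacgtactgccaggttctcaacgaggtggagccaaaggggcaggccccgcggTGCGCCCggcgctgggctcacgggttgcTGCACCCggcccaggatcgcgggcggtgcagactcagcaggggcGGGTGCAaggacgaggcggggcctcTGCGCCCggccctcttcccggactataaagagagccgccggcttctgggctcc
SLC30A1: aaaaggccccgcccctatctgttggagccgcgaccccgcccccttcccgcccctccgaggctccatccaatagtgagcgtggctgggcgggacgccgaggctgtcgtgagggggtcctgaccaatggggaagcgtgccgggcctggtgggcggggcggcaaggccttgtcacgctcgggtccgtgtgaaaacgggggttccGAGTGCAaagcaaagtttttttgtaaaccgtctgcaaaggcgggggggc
In a window of 300 bases that also takes in the first 50 bases of the transcript, MT2A held 8 matches, 7 of them in the stretch shown, and 0.0199% of the 35116 promoters of the RefSeq table held at least 8. MT1X held 4, all of them shown, between positions −150 and −53 from the start, and 0.601% of promoters held at least 4. SLC30A1 held 2, at −49 and at 25, and 8.6% of promoters held at least 2. At least 1 match was found in 29.6% of promoters, so a single match is a common feature. SLC39A10 had 2 annotated starts, with 0 matches at the first and 1 at the second, and MTF1 had 0. No match overlapped another or a match to the antioxidant response element core (TGACNNNGC, in 13.3% of promoters) or to the heat shock element (GAANNTTC, in 6.77%). The first of these was found 1 time each in MT2A, MT1X and SLC30A1, and the second 1 time at the first start of SLC39A10. Promoter sequences matched 5 of the 10 genes. MT1A, MT1E, MT1F, MT1G and MT1M had no entry. A match describes letters in a window, and binding of a factor was not measured.

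The values are TPM, in which each gene's reads are divided by its transcript length and scaled to the same total in every library, so levels of different genes can be set side by side. Such values hold no read counts, so the depth behind a value is unknown. Between 11353 and 11894 genes per library were at 1 TPM or more. The 13 mitochondrially encoded genes took 11.6% to 20.3% of the TPM in the EB libraries and 17.0% to 21.1% in DMSO replicates 1 to 3, but 39.0% in DMSO replicate 4, which stood apart. Results that rest on this library are given with and without it. Of the ductal epithelial markers, KRT8, KRT18, KRT19, SOX9 and MUC1 were above 1 TPM, whereas KRT7 and EPCAM stayed under 1 in every library, and the 7 markers summed to 1145 to 1613 TPM with DMSO and 3267 to 3654 with EB. Acinar, endocrine and endothelial marker lists summed to at most 0.305 TPM, with 5 of 6, 5 of 6 and 2 of 5 genes at 0. The leukocyte list reached 1.94 TPM, 3 of its 6 genes were at 0, and CD14 was its one gene above 1. The fibroblast list, with 2 of 5 genes at 0, was carried by COL1A1 and COL1A2, which cancer cells can express too, at 64.0 to 91.8 TPM with DMSO and 38.7 to 50.5 with EB. Their part in the results was not tested.

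Taken gene by gene, the metallothioneins did not all move the same way with EB. MT1M fell 2.15-fold, and no other tested metallothionein moved by more than 1.37-fold. With the length and GC trend removed none was called higher, and MT1E, MT1X and MT1M were called lower. In the TPM as deposited, the transcript of the 8 tested genes that changed most was that of the importer SLC39A10, which fell. Of the 10 genes, 8 were at 1 TPM or more in 4 or more libraries and were tested by limma on log2(TPM + 1). A Benjamini-Hochberg adjusted p under 0.05 over all 11725 genes tested was reached by 1 gene that was higher with EB, MT1A, where 15.2% of all tested genes were called higher. It was reached by 4 genes that were lower, MT1X, MT1M, SLC30A1 and SLC39A10, where 25.1% of all tested genes were called lower. The other tested genes, MT2A, MT1E and MTF1, did not pass. In all, 40.3% of the tested genes were called in either direction. The 4 EB values lay above all DMSO values in 1 gene (16.6% of all tested genes) and below them in 4 (20.3%, or 36.8% in either direction), the same genes as those called. The median log2 fold change, EB minus DMSO, was −0.45 over the 8 genes and −0.11 over all tested genes. By the thresholds of the study (p under 0.05, read here as unadjusted, with a log2 fold change beyond 1.5 in either direction) 1 gene passed, SLC39A10, which was lower. By these thresholds 1.54% of all tested genes were lower and 0.537% higher. The study's own counts were not reproduced, since it reported more genes higher than lower. It does not say whether its p was adjusted. Fold changes on the log2(TPM + 1) scale understate the change of low genes, and in bulk RNA a change in the number of cells of one state and a change in RNA per cell cannot be told apart.

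**Figure D1:**
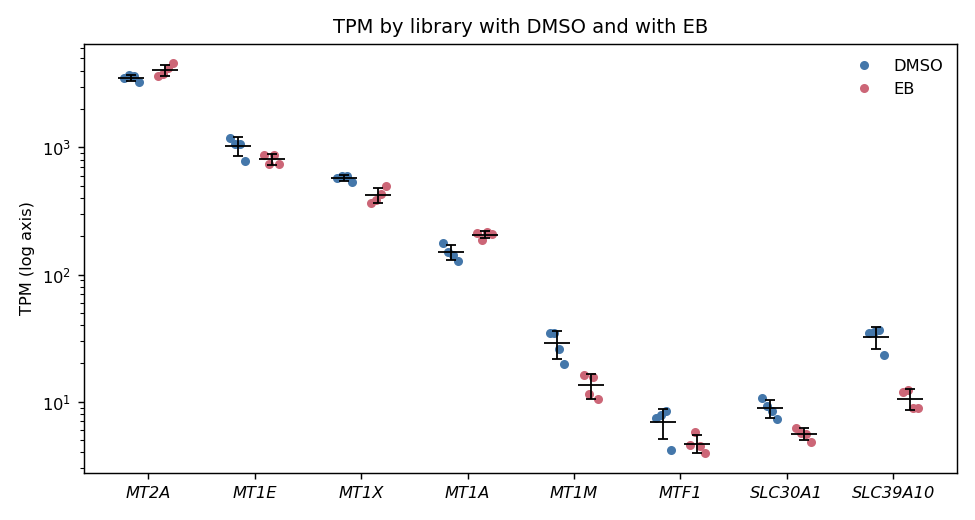
TPM (log axis) of the 8 tested genes in each DMSO and EB library, with a point per library and bars for the mean and SD of each group (n = 4). The EB points of MT1A lie above the DMSO points, those of MT1X, MT1M, SLC30A1 and SLC39A10 lie below them, and those of MT2A, MT1E and MTF1 overlap.

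MT2A (ENSG00000125148, chr16:56608584-56609497 on hg38) encodes the most widely expressed human metallothionein and was by far the most abundant of the genes. Its TPM was 3509.9, 3722, 3610.5 and 3284 in DMSO replicates 1 to 4 and 3625, 3763, 4208 and 4562 in EB replicates 1 to 4. The first EB library lay within the DMSO range and the others above it, so the groups overlapped. It ranked between 25 and 32 among all genes by TPM in every library, a place that EB left in the same range. The mean was 3532 ± 187 TPM (SD, n = 4) with DMSO and 4039.7 ± 428 with EB. The log2 fold change was 0.19 (standard error 0.12, 95% interval −0.08 to 0.46, limma adjusted p = 0.236). MT2A did not pass the test, and its interval takes in 0. With each library's trend on transcript length and GC content taken out the sign turned, to −0.20 (adjusted p = 0.296), and with median-ratio scaling the value was 0.32.

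MT1E (ENSG00000169715, chr16:56625475-56627112) was second in abundance. Its TPM was 1189, 1059, 1071 and 780.3 in DMSO replicates 1 to 4 and 868.9, 738.1, 876.4 and 733.9 in EB replicates 1 to 4. Every EB library was below DMSO replicates 1 to 3, and DMSO replicate 4 lay inside the EB range. The log2 fold change was −0.34 (standard error 0.15, 95% interval −0.68 to 0.01, limma adjusted p = 0.106). Without DMSO replicate 4 it was −0.46 (adjusted p = 0.00851), past the threshold, and it also passed with quantile normalization (−0.64), with the mitochondrial genes removed (−0.52) and with the length and GC trend removed (−0.71).

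MT1X (ENSG00000187193, chr16:56682470-56684196) fell with EB. Its TPM was 570.8, 596.1, 596.3 and 529.3 in DMSO replicates 1 to 4 and 368.3, 384.2, 433.1 and 501.0 in EB replicates 1 to 4. All EB values were below all DMSO values, and the gap between EB replicate 4 and DMSO replicate 4 was the narrowest. The mean was 573.1 ± 31.6 TPM (SD, n = 4) with DMSO and 421.7 ± 59.6 with EB, 1.36-fold lower. On the log2 scale it changed by −0.45 (standard error 0.13, 95% interval −0.74 to −0.16, limma adjusted p = 0.0221). The call was lost with median-ratio scaling (−0.32, adjusted p = 0.11) and in the limma fits without DMSO replicate 2 (adjusted p = 0.0624), DMSO replicate 3 (0.061), EB replicate 1 (0.0686) or EB replicate 2 (0.0553). The fall was larger with quantile normalization (−0.69) and with the length and GC trend removed (−0.84).

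MT1A (ENSG00000205362, chr16:56638666-56640087) was the one metallothionein that rose. Its TPM was 175.4, 150.9, 143.4 and 128.1 in DMSO replicates 1 to 4 and 210.3, 186.6, 215.7 and 208.8 in EB replicates 1 to 4. The groups did not overlap, with DMSO replicate 1 closest to the EB libraries. The mean was 149.4 ± 19.8 TPM (SD, n = 4) with DMSO and 205.4 ± 12.9 with EB, 1.37-fold higher. This was a log2 fold change of 0.46 (standard error 0.13, 95% interval 0.17 to 0.75, limma adjusted p = 0.0189). With the length and GC trend removed it was 0.07 (adjusted p = 0.44), and the call was also lost without DMSO replicate 3 (limma adjusted p = 0.0534), EB replicate 1 (0.0507) or EB replicate 3 (0.0565), at log2 fold changes between 0.44 and 0.45. With quantile normalization and with the mitochondrial genes removed it kept the call at 0.28.

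MT1M (ENSG00000205364, chr16:56632659-56633981) was the least abundant of the tested metallothioneins and the one that fell most. Its TPM was 34.9, 34.7, 26.1 and 20.0 in DMSO replicates 1 to 4 and 16.3, 11.5, 15.5 and 10.5 in EB replicates 1 to 4. All EB values were below all DMSO values. The mean was 28.9 ± 7.24 TPM (SD, n = 4) with DMSO and 13.5 ± 2.89 with EB, 2.15-fold lower. Its log2 fold change was −1.04 (standard error 0.21, 95% interval −1.5 to −0.57, limma adjusted p = 0.00449). MT1M kept this call in each of 17 other settings of the processing, between −1.43 and −0.91.

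MT1F and MT1G were close to silent. MT1F (ENSG00000198417, chr16:56657731-56660698) was listed at 0.124 and 0.126 TPM in DMSO replicates 1 and 2, at 0.104 in EB replicate 2 and at 0 in the other 5 libraries. MT1G (ENSG00000125144, chr16:56666730-56668065) was listed at 0 in all 8. Neither was tested. Of 6 further metallothionein genes, MT1B, MT1H, MT1HL1, MT3 and MT4 were listed at 0 in all 8 libraries and MT1L was not in the table. Metallothionein transcripts resemble each other, and how reads that match several genes were counted is not given in the sources used here. Of the 50-base stretches of each reference transcript, 5.76% of MT1A, 10.3% of MT1E, 14.6% of MT1M, 18% of MT1X and 10.2% of MT2A also occur in another metallothionein gene. For MT1X 51% occur in any other annotated gene, an overlapping noncoding transcript included. Values of single paralogs are uncertain to the extent that such reads were divided among them.

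Summed over the 7 paralogs, metallothionein transcripts differed little between the groups, and the mix of paralogs shifted toward MT2A. The sum was 5479.6, 5563, 5447 and 4741 TPM in DMSO replicates 1 to 4 and 5089, 5083, 5749 and 6017 TPM in EB replicates 1 to 4. EB replicates 1 and 2 lay within the DMSO range and EB replicates 3 and 4 above it. The mean was 5308 ± 381 TPM (SD, n = 4) with DMSO and 5485 ± 473 with EB, 0.531% and 0.548% of all TPM. The difference in the log2 of the means was 0.05, smaller than the spread between libraries of one group (pooled SD 0.116 on the log2 scale), and its sign depended on the scaling: it was 0.19 with median-ratio scaling, −0.14 with quantile normalization, −0.13 with the mitochondrial genes removed and −0.34 with the length and GC trend removed. Without DMSO replicate 4 it was −0.0032. MT2A decided the sum. Without MT2A the sum was 1776 ± 221 TPM (SD, n = 4) with DMSO and 1445 ± 91.5 with EB, a log2 difference of −0.30, with overlapping groups.

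**Figure D2:**
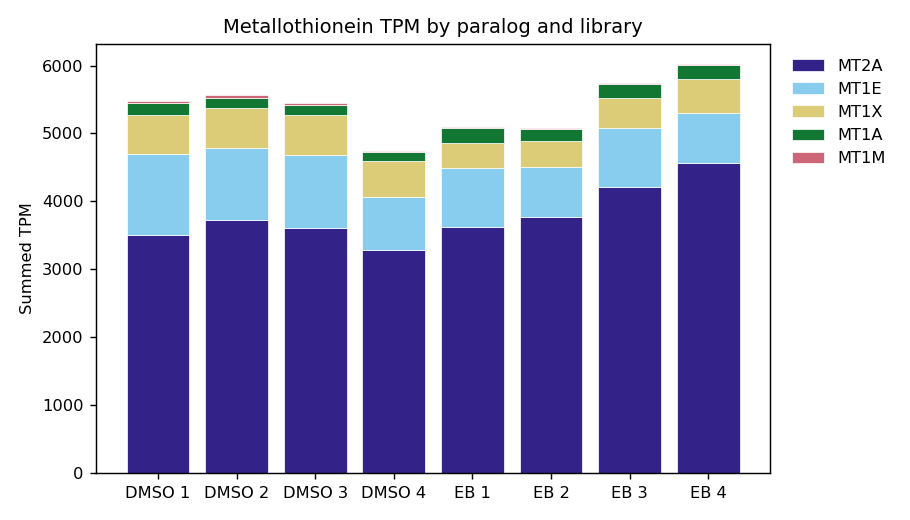
Summed metallothionein TPM in each of the 8 libraries, stacked by paralog from MT2A at the bottom to MT1M at the top. The sums lie between 4741 and 5563 TPM with DMSO and between 5083 and 6017 with EB, and MT2A takes the largest part of each bar.

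The order MT2A, MT1E, MT1X, MT1A and MT1M from the highest to the lowest TPM was the same in all 8 libraries, and the ranges of neighbours in this order did not overlap in either group. Within the sum, MT2A took 66.6% ± 2.14 (SD, n = 4) with DMSO and 73.6% ± 1.91 with EB, and every EB library was above every DMSO library. MT1X took 10.8% ± 0.320 with DMSO and 7.66% ± 0.465 with EB, and MT1M 0.540% ± 0.107 and 0.248% ± 0.0624, both without overlap and lower with EB. MT1A took 2.81% ± 0.262 with DMSO and 3.76% ± 0.277 with EB, with EB above. The share of MT1E was 19.2% ± 2.16 with DMSO and 14.8% ± 2.02 with EB, and its groups overlapped. These shares are tied to each other, since they add up to the whole.

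The ratio of a paralog to MT2A within a library does not move with a scaling factor between libraries, and 4 such ratios were compared. MT1X to MT2A had the smallest spread of them. On the log2 scale it was −2.62, −2.64, −2.60 and −2.63 in DMSO replicates 1 to 4 and −3.30, −3.29, −3.28 and −3.18 in EB replicates 1 to 4. The difference of −0.64, a ratio 1.56-fold lower with EB, compares with an SD between libraries of 0.019 with DMSO and 0.052 with EB. MT1M to MT2A was −6.92 ± 0.315 (SD, n = 4) with DMSO and −8.14 ± 0.391 with EB, a difference of −1.22, also without overlap. An exact two-sided permutation test gave p = 0.0286 for both, the smallest p that 4 against 4 libraries allow, and an adjusted p of 0.0571 over the 4 ratios. For MT1E the difference was −0.53 (exact permutation test, p = 0.0571, adjusted 0.0762) and for MT1A 0.27 (p = 0.0857, adjusted 0.0857), and their groups overlapped. None of the ratios was past 0.05 after adjustment. With 1 library left out each kept its direction, and the MT1X ratio stayed between −0.67 and −0.63. A ratio shows unequal change in a pair of genes and not which of them changed.

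**Figure D3:**
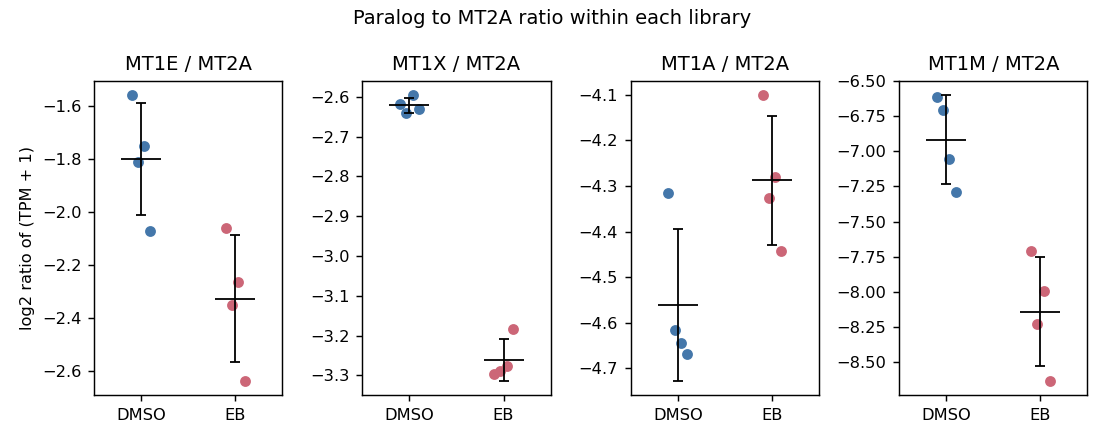
Log2 ratio of each paralog to MT2A, computed from TPM + 1 in each library, with a point per library and bars for the mean and SD (n = 4). MT1X falls from −2.62 to −3.26 and MT1M from −6.92 to −8.14 without overlap, whereas the points of MT1E and MT1A overlap between DMSO and EB. Each panel has its own axis range.

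MTF1 (ENSG00000188786, chr1:37809574-37859592), the zinc-sensing transcription factor, was expressed at a low level. Its TPM was 7.38, 7.83, 8.40 and 4.17 in DMSO replicates 1 to 4 and 4.55, 5.76, 4.52 and 3.93 in EB replicates 1 to 4. DMSO replicate 4 lay inside the EB range, and the other DMSO libraries were above every EB library. The log2 fold change was −0.45 (standard error 0.20, 95% interval −0.90 to −0.01), with an unadjusted limma p of 0.046 and an adjusted p of 0.0935, which is not past 0.05. Without DMSO replicate 4 it was −0.65 (limma adjusted p = 0.00306). It also passed with median-ratio scaling (−0.34, adjusted p = 0.0433) and with the mitochondrial genes removed (−0.63, adjusted p = 0.00586), but with the length and GC trend removed it was 0.06 (adjusted p = 0.608). With that trend removed and DMSO replicate 4 left out too it was −0.0059 (limma adjusted p = 0.954).

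The zinc transporters among the genes both fell with EB, the exporter 1.60-fold and the importer 3.07-fold, and the difference between these falls was not tested. SLC30A1 (ENSG00000170385, chr1:211571568-211579161) moves zinc out of the cell. Its TPM was 10.7, 9.23, 8.39 and 7.32 in DMSO replicates 1 to 4 and 6.25, 5.66, 5.57 and 4.79 in EB replicates 1 to 4. All EB values were below all DMSO values. The mean was 8.90 ± 1.41 TPM (SD, n = 4) with DMSO and 5.57 ± 0.602 with EB, 1.60-fold lower, and the log2 fold change was −0.59 (standard error 0.14, 95% interval −0.90 to −0.27, limma adjusted p = 0.00935). This call held with each library left out, and with the length and GC trend removed it was lost (−0.16, adjusted p = 0.238). With quantile normalization the value was −0.29.

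SLC39A10 (ENSG00000196950, chr2:195575977-195737702) brings zinc into the cytosol. Its TPM was 34.5, 35.3, 36.4 and 23.2 in DMSO replicates 1 to 4 and 12.0, 12.4, 8.85 and 8.90 in EB replicates 1 to 4. The highest EB value was below the lowest DMSO value, that of replicate 4. The mean was 32.4 ± 6.18 TPM (SD, n = 4) with DMSO and 10.5 ± 1.94 with EB, 3.07-fold lower. The log2 fold change was −1.52 (standard error 0.18, 95% interval −1.93 to −1.12, limma adjusted p = 0.000364). It kept its call at an adjusted p under 0.05 in each of 17 other settings of the processing, between −1.72 and −1.16. Its place past the fold threshold of the study was narrow, and it fell short of 1.5 in absolute value without DMSO replicate 1, 2 or 3 and without EB replicate 3 or 4, where it was between −1.49 and −1.45, as well as with median-ratio scaling, quantile normalization and the length and GC trend removed.

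Fold changes in these libraries moved with transcript length, and the genes lie at both ends of that range. The 5 tested metallothioneins have reference transcripts of 396 to 746 nucleotides and belong to the shortest of 10 length classes of the tested genes (276 to 1225 nucleotides, 1169 genes), whose median log2 fold change was 0.41, with quartiles at 0.08 and 0.66. MT1A (0.46) and MT2A (0.19) lay between these quartiles, and MT1E (−0.34), MT1X (−0.45) and MT1M (−1.04) below them. SLC39A10 has a transcript of 5222 nucleotides, and its fold change of −1.52 was below the lower quartile of −0.67 in its length class, whose median was −0.35. SLC30A1 (5893 nucleotides, −0.59) and MTF1 (7937 nucleotides, −0.45) lay between the quartiles of their classes, with medians of −0.45 and −0.54. The part of length in these results was not tested beyond the fit with the trend removed, which moved the metallothioneins down and the long transcripts up.

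**Figure D4:**
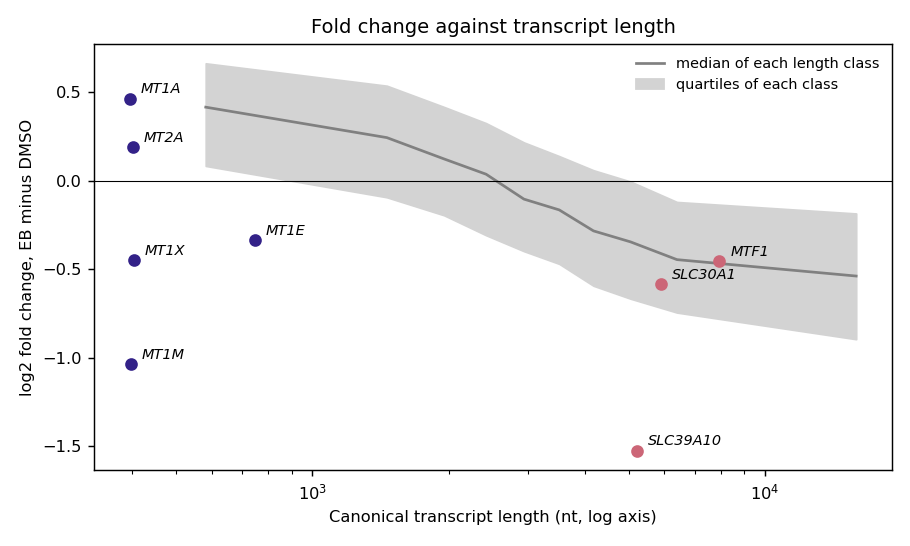
Log2 fold change, EB minus DMSO, against reference transcript length (log axis) for the 8 tested genes, with the median and the quartiles of 10 length classes of all tested nuclear genes as a line and a band. The band starts at the midpoint of the shortest class, so MT1A, MT1M, MT2A and MT1X are drawn to the left of it. MT1E, MT1X, MT1M and SLC39A10 lie below the lower quartile of their length class. The other genes lie between the quartiles of theirs.

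The scaling between libraries also moved the calls. Over all tested genes the log2 fold change had a median of −0.11 in the deposited TPM, 0.01 with median-ratio scaling, 0.02 with quantile normalization, −0.28 with the mitochondrial genes removed and 0.02 with the length and GC trend removed. The calls over all genes were 1785 higher and 2944 lower as deposited, and 3146 and 3001, 2782 and 2764, 1440 and 4840, and 2854 and 2551 under these settings in the same order. MT1E, MT1M, MT1X, SLC30A1 and SLC39A10 were below 0 under each of them, and MT1A was above 0.

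**Figure D5:**
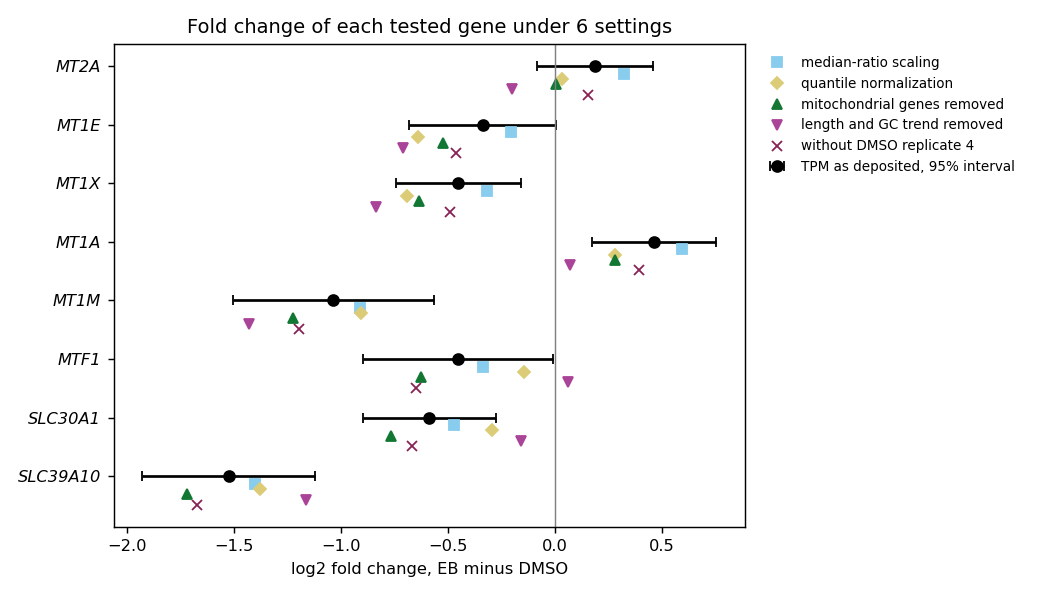
Log2 fold change, EB minus DMSO, of the 8 tested genes with the TPM as deposited (circle with its 95% interval) and under 5 other settings. The markers of SLC39A10, MT1M, MT1X, MT1E and SLC30A1 stay below 0 and those of MT1A above it, whereas MT2A and MTF1 have markers on both sides.

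Most other zinc transporter genes did not pass the test. Of 10 further genes for zinc export or sequestration in vesicles (SLC30A2 to SLC30A10 and TMEM163), 6 were tested, with 1 higher (15.2% of all tested genes), 1 lower (25.1%) and a median log2 fold change of 0.00. SLC30A3, which loads zinc into vesicles, rose from 4.08 ± 1.22 to 6.75 ± 0.577 TPM (SD, n = 4), by 0.65 on the log2 scale (limma adjusted p = 0.0238), without overlap, and the call was lost without EB replicate 1 or 2. SLC30A9, a zinc transporter of mitochondria, fell from 15.8 ± 1.49 to 11.5 ± 1.57 TPM (SD, n = 4), −0.43 on the log2 scale (limma adjusted p = 0.0278). Its call was lost with quantile normalization (−0.23), with the length and GC trend removed (0.01) and without DMSO replicate 1, 2 or 3 or EB replicate 1, 3 or 4. Of 13 further genes of the importer family SLC39A, 10 were tested, with 1 higher and 0 lower by limma, beside the same 15.2% and 25.1% of all tested genes, and a median log2 fold change of 0.27. At an unadjusted limma p under 0.05, 0 were lower too, and SLC39A7 (0.52), named after its values were seen, was also higher. SLC39A6 and SLC39A4, also named after their values were seen, were not called, but their groups did not overlap. SLC39A6 (−0.26) was lower, at 23.7 to 30.7 TPM with EB and 31.6 to 35.7 with DMSO. It was at −0.07 with the length and GC trend removed and at −0.44, called lower, with the mitochondrial genes removed. SLC39A4 (0.43) was higher, at 17.3 to 30.7 TPM with EB and 11.6 to 16.7 with DMSO. SLC39A3, an importer of the plasma membrane, rose from 42.2 ± 12.5 to 67.9 ± 7.03 TPM (SD, n = 4), by 0.72 on the log2 scale (limma adjusted p = 0.0241), without overlap, and the call was lost without DMSO replicate 2 or EB replicate 1 or 3. Without DMSO replicate 4 the counts were the same, 1 higher and 1 lower among the exporters and 1 higher among the importers. Of all 11725 tested genes 1826 were then higher and 4333 lower. With the length and GC trend removed the list counts were 4 higher and 0 lower in each of these lists, beside 2854 and 2551 of all 11712 tested genes. Among the importers 4 were higher and 0 lower with median-ratio scaling, 5 and 0 with quantile normalization, and 2 and 1 with the mitochondrial genes removed. Among the exporters quantile normalization gave 2 higher and 0 lower and removal of the mitochondrial genes 1 and 2. Of all 11725 tested genes, 3146 were higher and 3001 lower with median-ratio scaling and 2782 and 2764 with quantile normalization. With the mitochondrial genes removed 1440 and 4840 of 11712 were. Of the zinc transporter genes tested, SLC39A10 was the one called with an absolute log2 fold change above 1.

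Likeness was measured as the mean absolute difference of log2(TPM + 1) profiles over the 8 libraries, each centred on its own mean, among 11685 nuclear genes. The profile of the summed metallothioneins was closest to those of ZNF441 (0.0432), GSTM1 (0.0457), ARF5 (0.0515), UBXN1 (0.0551) and PPP2R5C (0.0574). MTF1 was closest to ZNF629 (0.0483), CNNM3 (0.0497), TMEM127 (0.0508), CNNM4 (0.0511) and C21orf58 (0.0515). These are descriptions with no test.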

How the data were processed

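Gene expression was measured by RNA sequencing of mRNA libraries from PANC-1 cells. The authors deposited 1 table of TPM for 20263 genes and 8 libraries. Trimming, mapping and normalization were done in CLC Genomics Workbench by the methods, with HISAT2 and StringTie among further tools, and both GRCm38 (mm10) and hg38 are named as the genome. Which of these made the TPM, and the strand and multi-mapping settings of the counting, are not given in the sources used here. Identifiers were human and 20148 matched a symbol in GENCODE release 44, from which positions and transcript lengths were taken. TPM keep no depth, so the precision from counting is unknown.

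TPM were used as deposited. Genes at 1 TPM or more in 4 or more libraries were compared by limma 3.58.1 in R 4.3.3 on log2(TPM + 1), without a trend or block (prior degrees of freedom 3.88), with Benjamini-Hochberg adjustment over all genes tested. Ratios within libraries were compared by exact two-sided permutation tests in scipy 1.17.1. Sums were given without a test. Promoters came from RefSeq (GRCh38.p14). Python 3.11.15, pandas 2.3.3 and numpy 2.4.6 were used for tables and matplotlib 3.10.9 for plots. The limma step was tested on simulated data.

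The genes and lists were chosen with earlier results of these data known. All 10 members are named, and of each list (other metallothioneins, zinc exporters, zinc importers, copper handling, heat shock factor targets, NRF2 targets) at most 4 called genes, those that changed most. For likeness the 5 closest genes are named. The alternatives were quantile normalization, median-ratio scaling, removal of mitochondrial genes, removal of a spline trend on length and GC content, a filter at 5 TPM or none, a pseudocount of 0.1, an intensity trend in eBayes, a replicate block, each library left out and the thresholds of the study. The removals combined with leaving out DMSO replicate 4 were chosen after seeing the data.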

Additional observations from a re-analysis of the deposited data

Results flagged for a closer look

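In 30 groups of 4 libraries (each gene, the sum or a ratio in DMSO or in EB), the gap of the highest or the lowest value to its neighbour was divided by the range of the group and set against Dixon's critical value at the 95% level. The shares of the paralogs in the sum were not screened. It was exceeded in 5 groups. The rate of about 1 in 20 by chance holds for normally distributed values. MT1F and MT1G have values at 0, and the sum and the ratios share genes and libraries with the other groups. The 5 groups therefore cannot be set against that rate. SLC39A10 with DMSO (0.855) and the summed metallothionein TPM with DMSO (0.859) had DMSO replicate 4 as the low value, at 23.2 TPM against 34.5 to 36.4 and at 4741 TPM against 5447 to 5563. This is the library with 39.0% of its TPM in mitochondrial genes, and the part of that share in these values was not tested. The log2 ratio of MT1A to MT2A with DMSO (0.848) had DMSO replicate 1 as the high value, at −4.31 against −4.67 to −4.62. The log2 ratio of MT1X to MT2A with EB (0.833) had EB replicate 4 as the high value, at −3.18 against −3.30 to −3.28. MT1F with EB (1) was at 0.104 TPM in EB replicate 2 and listed at 0 in the others.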

How the results depend on the processing

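MT1M and SLC39A10 kept their direction and their call in each of 17 other settings of the processing. Genes called higher, 1785 as deposited, were 3146 with median-ratio scaling, 2782 with quantile normalization, 2854 with the length and GC trend removed (2877 without DMSO replicate 4 too), 63 by the thresholds of the study and 1270 to 1826 with 1 library left out. Genes called lower, 2944 as deposited, were 4840 with the mitochondrial genes removed (5010 without DMSO replicate 4 too), 181 by the thresholds of the study and 2073 to 4333 with 1 library left out. Of the 8 genes examined, 1 was called higher as deposited, and 0 with the length and GC trend removed (also without DMSO replicate 4), 0 by the thresholds of the study and 0 to 1 with 1 library left out. The 4 called lower were 1 by the thresholds of the study, 5 with quantile normalization, 6 with the mitochondrial genes removed and 3 to 6 with 1 library left out, 6 of them without DMSO replicate 4.

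The log2 ratio of the summed metallothionein TPM, 0.05 as deposited, was 0.19 with median-ratio scaling, −0.14 with quantile normalization, −0.13 with the mitochondrial genes removed (−0.086 without DMSO replicate 4 too), −0.34 with the length and GC trend removed (−0.28 without DMSO replicate 4 too), −0.30 without MT2A and −0.0032 to 0.08 with 1 library left out. MT2A reversed with the length and GC trend removed (−0.20, and −0.12 without DMSO replicate 4 too), as did MTF1 (0.059, but −0.0059 without DMSO replicate 4 too). The cause was not tested. No ratio to MT2A changed its direction or its side of the threshold, but with 1 library left out the smallest exact p is 0.0571, so these fits could not pass. Whether replicate numbers pair the libraries was not tested. Deviations of same-numbered libraries from their group means correlated at 0.18, 0.05, −0.09 and 0.28. The same number was the best match for replicates 1 and 4 and not for replicates 2 and 3. With the replicate block 2231 genes were higher and 3525 lower, 5 of the 8 genes were lower and 1 higher, MTF1 (−0.45, limma adjusted p = 0.0341) being the added call, and the exact sign-flip test of the ratios gave an adjusted p of 0.125, the smallest it can give, at the same differences. Depth is unknown, so counting error of the lowest genes, MTF1 and SLC30A1 among them, cannot be given.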

Other observations

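Genes of the oxidative stress and heat shock responses were measured in the same libraries. Of 15 NRF2 targets, which respond to oxidative stress, 14 were tested, 8 higher and 1 lower with EB at a limma adjusted p under 0.05 (15.2% and 25.1% of all tested genes), with a median log2 fold change of 0.55 against −0.11 over all tested genes. HMOX1, heme oxygenase 1, rose by 2.47, OSGIN1 by 1.75 and TXN, thioredoxin, by 1.10, whereas ABCC2, an efflux pump, fell by 1.10. With the length and GC trend removed TXN was at 0.73 and ABCC2 at −0.67, and with the mitochondrial genes removed the median of the list was 0.37. Of 14 heat shock factor targets, 13 were tested, 4 higher and 2 lower (15.2% and 25.1% of all tested genes), with a median of 0.19. Median-ratio scaling gave 8 higher and 1 lower, beside 3146 higher and 3001 lower of all 11725 tested genes. The median of the list was 0.07 with quantile normalization and 0.0029 with the mitochondrial genes removed. HSPE1 and HSPD1, the mitochondrial chaperonin pair, rose (0.83 for HSPE1), as did HSPB1 (0.79) and HSP90AA1 (0.72). The inducible HSP70 genes HSPA1A and HSPA1B, chosen here after their values were seen, were not called. HSPA1A was at 120 ± 25.2 TPM (SD, n = 4) with DMSO and 117 ± 14.4 with EB (log2 fold change −0.01, limma adjusted p = 0.954). HSPA1B was at 77.9 ± 16.5 TPM with DMSO and 87.6 ± 10.1 with EB (0.19, limma adjusted p = 0.427). With the length and GC trend removed HSPE1 was at 0.45 and HSPB1 at 0.44, and with quantile normalization HSP90AA1 was at 0.36 and HSPD1 at 0.30. The lower members, named after their values were seen, were HSPA8 and HSPA4L (0.20 for HSPA4L with the length and GC trend removed), and without DMSO replicate 1, 2 or 3 or EB replicate 3 or 4 neither was called. Leaving out DMSO replicate 4 again gave 8 higher and 1 lower NRF2 targets and 4 higher and 2 lower heat shock factor targets. Of all 11725 tested genes 1826 were then higher and 4333 lower.

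Of 18 copper handling genes, 14 were tested, with 4 higher (15.2% of all tested genes), 0 lower by limma (25.1% of all tested genes) and a median of 0.30. At an unadjusted limma p under 0.05, SLC31A1 (0.36) and ATOX1 (0.34) were also higher, and ATP7B (−0.54) and COX11 (−1.20) were lower. SLC31A1 and ATOX1 are named here after their values were seen. So is ATP7A, a copper efflux transporter, which the filter left out of the test. It was at 1.27 ± 0.270 TPM (SD, n = 4) with DMSO and 0.636 ± 0.119 with EB, without overlap. With no filter it was called lower (−0.47, limma adjusted p = 0.0132). The 18 genes then gave 6 higher and 1 lower, beside 1903 higher and 3036 lower of all 16142 genes. COX17, the copper chaperone of cytochrome c oxidase, rose by 0.98, MEMO1 by 0.78, COMMD1 by 0.68 and SOD1, the copper and zinc superoxide dismutase, by 0.64. With the length and GC trend removed COX17 was at 0.60, COMMD1 at 0.31 and SOD1 at 0.31. COX17, COMMD1 and SOD1 belong to the shortest length class, whose median was 0.41. Leaving out DMSO replicate 4 gave 4 higher and 3 lower genes with a median of 0.14. Over all 11725 tested genes 1826 were then higher and 4333 lower. The 3 lower copper handling genes were ATP7B (−0.71), COX11 (−1.72) and STEAP3 (−0.56), which are named here after their values were seen. Median-ratio scaling gave 8 higher and 2 lower, removal of the mitochondrial genes 4 and 2 with a median of 0.14, and removal of the length and GC trend 6 and 0 with a median of 0.15. Over all tested genes the counts were 3146 and 3001 of 11725 with median-ratio scaling. They were 1440 and 4840 of 11712 with the mitochondrial genes removed and 2854 and 2551 of 11712 with the trend removed.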
